A study of Mus musculus with 13 samples.

Results

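The chemokine receptor genes of mouse chromosome 9 named Ccr1, Ccr2, Ccr3, Ccr9, Ccrl2, Cxcr6 and Xcr1 were described across 4 genotypes of bone marrow hematopoietic stem and progenitor cells (HSPCs). The members were chosen by gene symbol, with earlier results of these data known, and they are 7 of the 55421 genes in the deposited count tables. Of these genes, 19289 had enough counts to be tested, and all 7 receptors were among them.

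The data were 10 bulk RNA-seq libraries, of which 3 were from cells labelled Setd2 knockout and Srsf2 mutated (called double mutant here), 3 from Srsf2 mutated cells, 2 from Setd2 knockout cells and 2 from wild type (WT) cells. Setd2 encodes the histone methyltransferase that places trimethylation on lysine 36 of histone H3, and Srsf2 encodes a splicing factor that is mutated in myeloid blood cancers. For the single-cell samples of the same series, which were not analysed here, the labels give Mx1-Cre+ mice, wild type included, with the alleles Setd2fl/fl and Srsf2P95H/+, lineage-negative c-Kit+ cells, and a bone marrow transplant model at 4 weeks after pIpC. Mx1-Cre is a recombinase switched on by pIpC and not restricted to blood cells. The alleles, the sort, the transplant, the age and the strain are not given for the bulk libraries. The labels do not say whether libraries of a group came from separate mice, so the p-values measure only the spread between these libraries, which may be technical.

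Chemokine receptors are seven-pass membrane proteins that guide cell movement: a chemokine binds, an inhibitory G protein is released, and the cell migrates up the gradient until kinases and arrestins silence the receptor. In bone marrow, Ccr2 carries monocytes out into the blood, Ccr1 serves neutrophils and monocytes in inflammation, and Ccr3 is the eotaxin receptor of eosinophils. Ccrl2 is an atypical member that binds chemerin and does not signal through G proteins. Ccr9 guides T cell progenitors to the thymus and lymphocytes to the gut, Cxcr6 is found on T and NKT cells, and Xcr1 marks cross-presenting dendritic cells.

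The libraries held between 32117387 and 50445434 counts in genes, and levels are given as CPM, the depth-scaled count unit, in which a gene's count is divided by its library's scaled total. Kit and Cd34, markers of HSPCs, were present in each group, with means of 163 to 444 CPM for Kit and 158 to 295 CPM for Cd34. Kit was lowest in double mutant libraries, and presence alone does not show that the groups held the same cells. The whole-gene count of Setd2 averaged 130.4 ± 0.870 CPM in double mutant, 197 ± 34.8 in Srsf2 mutated, 222 ± 12.9 in Setd2 knockout and 152 ± 9.63 in wild type libraries (SD, n = 3, 3, 2 and 2). Against wild type, Setd2 was higher where the label says Setd2 knockout (0.55 ± 0.12 on the log2 scale, adjusted p = 0.00204 by edgeR). Against Srsf2 mutated libraries, it was lower in the double mutant (-0.60 ± 0.099, adjusted p = 0.000182). A count over the whole gene need not show the loss of a floxed exon, so it does not check the label, and each direction for the libraries labelled Setd2 knockout rests on that label. The female transcript Xist averaged 7.41 CPM in double mutant, 1.78 in Srsf2 mutated, 0.598 in Setd2 knockout and 485 CPM in wild type libraries, and the Y-linked Ddx3y averaged 124 and 111 CPM in double mutant and Srsf2 mutated libraries with 0 counts in the other 4 libraries. The 9 stem and progenitor markers summed to 3541 to 3671 CPM in double mutant, 4728 to 5267 in Srsf2 mutated, 7562 to 8138 in Setd2 knockout and 12846 to 12895 CPM in wild type libraries. The sex-linked state differed between genotypes, and its part in the results was not tested. Ddx3y was present only in the groups with mutated Srsf2, so Y-linked state and Srsf2 genotype cannot be told apart in these libraries.

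On the GRCm38 build with GENCODE M21 annotation, 6 of the 7 genes lie in one stretch of 435 kb: Ccr9 (ENSMUSG00000029530, chr9:123678439-123784330, plus strand), Cxcr6 (ENSMUSG00000048521, chr9:123806475-123811760, plus), Xcr1 (ENSMUSG00000060509, chr9:123852315-123862029, minus), Ccr1 (ENSMUSG00000025804, chr9:123962124-123968692, minus), Ccr3 (ENSMUSG00000035448, chr9:124021972-124031689, plus) and Ccr2 (ENSMUSG00000049103, chr9:124101950-124113557, plus). Ccrl2 (ENSMUSG00000043953, chr9:111054486-111057519, minus) does not lie in that cluster: it is 12.6 Mb away, and only 0.436 Mb from the end of Setd2 itself. All 7 are protein-coding. Cxcr6 lies inside Fyco1 on the opposite strand and shares no exonic base with it. The Ccr9 model shares 1932 of its 10260 exonic bases with AC165425.1 on the opposite strand and 269 with Gm17200 on the same strand, and 20.1% of its distinct 50-base words occur in other transcripts. Whether the counting used strand is not given in the sources used here, so Ccr9 counts are uncertain to that extent; AC165425.1 itself averaged at most 0.137 CPM in any group. Of the other receptors, Ccr1, Ccr3, Ccrl2 and Cxcr6 shared no 50-base word with another gene, Xcr1 shared 1.63% and Ccr2 1.91%.

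The upstream sequences of Ccr1, Ccr3 and Ccrl2 are shown because Setd2 knockout against wild type, described further on, called Ccr1 but neither Ccr3 nor Ccrl2. RefSeq promoter windows were found for all 7 genes, and the 250 bases before the RefSeq start (GRCm38.p6) were searched on both strands. They are written 5′ to 3′ on the strand of the gene, with motif matches in capitals: chr9:123968693-123968942 (minus) for Ccr1, chr9:124021721-124021970 (plus) for Ccr3 and chr9:111057519-111057768 (minus) for Ccrl2. The RefSeq start of Ccr2 lies 233 bases from the GENCODE start and that of Ccr9 88772 bases from it, so those windows are not shown.
Ccr1: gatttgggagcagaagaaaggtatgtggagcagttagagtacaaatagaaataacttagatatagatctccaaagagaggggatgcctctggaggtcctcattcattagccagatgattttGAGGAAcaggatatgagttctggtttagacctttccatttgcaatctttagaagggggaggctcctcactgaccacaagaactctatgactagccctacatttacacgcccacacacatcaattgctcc
Ccr3: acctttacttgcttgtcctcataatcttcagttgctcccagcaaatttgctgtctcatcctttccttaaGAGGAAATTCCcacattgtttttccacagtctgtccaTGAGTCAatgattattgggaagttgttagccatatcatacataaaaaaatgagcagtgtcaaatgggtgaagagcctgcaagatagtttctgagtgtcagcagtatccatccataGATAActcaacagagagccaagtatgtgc
Ccrl2: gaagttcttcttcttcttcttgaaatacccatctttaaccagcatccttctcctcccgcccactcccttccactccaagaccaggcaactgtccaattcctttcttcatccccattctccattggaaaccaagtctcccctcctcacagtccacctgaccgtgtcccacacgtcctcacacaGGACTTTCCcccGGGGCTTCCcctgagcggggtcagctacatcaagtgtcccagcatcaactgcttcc
The motifs searched were GAGGAA (PU.1), TTGCNNAA (C/EBP), GATAA (GATA), GGNNNTTCC (NF-kB), TGANTCA (AP-1) and GAAANNGAA (IRF). Ccr1 held 1 match, to the PU.1 letters, which occur in 23.1% of 27025 such windows. Ccr3 held PU.1, GATA, NF-kB and AP-1 letters, found in 23.1%, 23.0%, 15.6% and 6.87% of windows, and its PU.1 and NF-kB matches overlap. Ccrl2 held the NF-kB letters at 2 places, from -68 to -60 and from -56 to -48 relative to the start. Of all 7 genes, GATA letters also occurred in Ccr2 and Xcr1, IRF letters (7.16% of windows) in Ccr2, and C/EBP letters (9.55% of windows) in 0. A match describes letters only.

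The receptors for inflammatory chemokines, Ccr1 and Ccr2, were higher in each mutant genotype than in wild type, and they differed in which genotype was highest. Ccr1 had 201, 206 and 213 CPM in double mutant libraries, 38.5, 36.9 and 42.6 in Srsf2 mutated libraries, 101 and 94.9 in libraries labelled Setd2 knockout, against 9.13 and 9.29 CPM in wild type. No library overlapped with one of another genotype, and the order was double mutant, Setd2 knockout, Srsf2 mutated, wild type. Ccr1 was 10.7-fold higher in Setd2 knockout than in wild type (log2 3.41 ± 0.095, adjusted p = 2.51e-12), 4.27-fold higher in Srsf2 mutated than in wild type (2.09 ± 0.088, adjusted p = 1.87e-11) and 22.4-fold higher in double mutant than in wild type (4.49 ± 0.095, adjusted p = 3.04e-15; edgeR, errors are SE). In these bulk samples a change in the number of cells that carry a transcript and a change in RNA per cell cannot be told apart.

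Ccr2, the receptor for Ccl2, Ccl7 and Ccl12, had 222, 220.0 and 225 CPM in double mutant libraries, 105, 98.1 and 105 in Srsf2 mutated libraries, 418 and 384 in libraries labelled Setd2 knockout, against 67.4 and 62.7 CPM in wild type. It was thus highest in the libraries labelled Setd2 knockout, with no overlap between any of the 4 groups. Setd2 knockout stood 6.16-fold above wild type (log2 2.62 ± 0.080, adjusted p = 5.12e-12), and Srsf2 mutated 1.58-fold above wild type (0.66 ± 0.071, adjusted p = 1.08e-06). Double mutant libraries were 3.41-fold above wild type (1.77 ± 0.074, adjusted p = 9.14e-12) and 1.81-fold below Setd2 knockout (-0.85 ± 0.067, adjusted p = 2.78e-08). Ccr2 was the only receptor of the 7 called lower in double mutant than in Setd2 knockout.
The summed level of 12 monocyte markers was 2143 to 2203 CPM in libraries labelled Setd2 knockout and 3713 to 4186 CPM in wild type, with 4 markers higher, 4 lower and a median log2 fold change of 0.084. In double mutant libraries the sum was 6810 to 7059 CPM, against 3448 to 3974 in Srsf2 mutated libraries, with 9 markers higher and 2 lower. Against wild type, 10 were higher and 1 lower in double mutant, and 8 higher and 1 lower in Srsf2 mutated libraries. Of all tested genes, 18.7% were higher and 19.9% lower in Setd2 knockout than in wild type. The shares were 28.5% and 27.8% for Srsf2 mutated and 33.5% and 29.5% for double mutant against wild type. In double mutant against Srsf2 mutated they were 17.8% and 15.9%. These shares apply to the marker lists further on as well. The part of the monocyte markers in the Ccr2 and Ccr1 values was not tested.

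Ccr3, the eotaxin receptor, moved with the Srsf2 genotype. It had 10.3, 10.1 and 13.1 CPM in double mutant libraries, 3.95, 4.16 and 3.39 in Srsf2 mutated libraries, 0.843 and 0.656 in libraries labelled Setd2 knockout, against 0.659 and 0.706 CPM in wild type. The libraries labelled Setd2 knockout overlapped with wild type and no other pair of groups did. Srsf2 mutated libraries were 5.61-fold above wild type (log2 2.49 ± 0.23, adjusted p = 2.09e-07), and double mutant libraries 16.3-fold above it (4.03 ± 0.23, adjusted p = 5.08e-10). Setd2 knockout and wild type gave a log2 fold change of 0.13 ± 0.28 (adjusted p = 0.741). Within the Srsf2 mutated background, double mutant libraries were 2.91-fold higher (1.54 ± 0.16, adjusted p = 1.85e-06).
The 9 eosinophil markers summed to 2061 to 2106 CPM in double mutant, 1440 to 1730 in Srsf2 mutated, 180.2 to 192 in Setd2 knockout and 890.1 to 1056 CPM in wild type libraries. Against wild type, 7 of these 9 markers were higher and 2 lower in double mutant, 6 higher and 2 lower in Srsf2 mutated, and 0 higher and 8 lower in Setd2 knockout libraries. Of 10 basophil and mast cell markers, 6 were higher and 0 lower in Srsf2 mutated than in wild type. Against wild type, 7 were higher and 2 lower in double mutant, and 3 higher and 3 lower in Setd2 knockout. In double mutant against Srsf2 mutated, 2 basophil and mast cell markers were higher and 8 lower, and 7 eosinophil markers were higher and 0 lower. The part of these cell types in the Ccr3 values was not tested.

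Ccrl2, the atypical chemerin-binding receptor, was higher in both genotypes with mutated Srsf2. It had 105, 94.9 and 101 CPM in double mutant libraries, 23.8, 19.4 and 27.4 in Srsf2 mutated libraries, 7.26 and 7.77 in libraries labelled Setd2 knockout, against 10.2 and 6.47 CPM in wild type. The Setd2 knockout values fell between the 2 wild type values (log2 fold change -0.15 ± 0.18, adjusted p = 0.552). Srsf2 mutated libraries were 2.82-fold above wild type (1.49 ± 0.16, adjusted p = 1.39e-06), and double mutant libraries 4.26-fold above Srsf2 mutated ones (2.09 ± 0.14, adjusted p = 5.52e-09).
The 12 neutrophil markers summed to between 35633 and 36420.3 CPM in double mutant, 15395 and 19022 in Srsf2 mutated, 6424 and 7002 in Setd2 knockout, and 17813 and 24805 CPM in wild type libraries; all 12 were lower in Setd2 knockout than in wild type and all 12 higher in double mutant than in Srsf2 mutated. Their part in the result was not tested.

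The receptors of lymphoid and dendritic cells were scarce. Ccr9, the receptor for Ccl25, had 3.65, 3.11 and 4.59 CPM in double mutant libraries, 2.20, 1.27 and 1.32 in Srsf2 mutated libraries, 0.259 and 0.698 in libraries labelled Setd2 knockout, against 0.447 and 0.494 CPM in wild type, where these values stand for 19 and 21 counts. The Setd2 knockout libraries lay on either side of wild type (log2 fold change 0.028 ± 0.48, adjusted p = 0.975), whereas Srsf2 mutated libraries were 3.38-fold above wild type (1.76 ± 0.42, adjusted p = 0.00217) and double mutant libraries 2.37-fold above Srsf2 mutated ones (1.25 ± 0.32, adjusted p = 0.00655). The authors' deposited table gave an adjusted p of 0.259 for Ccr9 in that last comparison.
Cxcr6, the receptor for Cxcl16, had 1.53, 1.60 and 0.993 CPM in double mutant libraries, 0.340, 1.69 and 0.481 in Srsf2 mutated libraries, 0.691 and 0.550 in libraries labelled Setd2 knockout, against 0.212 and 0.165 CPM in wild type. A single Srsf2 mutated library, replicate 2, was higher than each other library, and the 2 wild type values rest on 9 and 7 counts. Cxcr6 was called higher in Srsf2 mutated than in wild type (log2 2.15 ± 0.68, adjusted p = 0.0138), but without that replicate the value was 1.11 with an adjusted p of 0.111. The call in double mutant against wild type (2.84 ± 0.68, adjusted p = 0.00191) held without it.
Xcr1, the receptor for Xcl1, had 2.15, 1.57 and 1.90 CPM in double mutant libraries, 0.567, 1.35 and 1.01 in Srsf2 mutated libraries, 2.66 and 2.41 in libraries labelled Setd2 knockout, against 0.541 and 0.706 CPM in wild type. The libraries labelled Setd2 knockout were 4.05-fold above wild type (log2 2.02 ± 0.41, adjusted p = 0.00102). Their values were the highest of the 10, but double mutant against Setd2 knockout was not called (-0.44 ± 0.34, adjusted p = 0.30). Double mutant libraries gave 0.93 ± 0.32 against Srsf2 mutated ones (adjusted p = 0.0349), a call that ended when Srsf2 mutated replicate 1 was left out (0.61, adjusted p = 0.148), and also without double mutant replicate 1 or 3 or either Setd2 knockout replicate (adjusted p = 0.0642 to 0.108). The 9 dendritic cell markers summed to 379.7 to 389 CPM in double mutant, 447 to 592 in Srsf2 mutated, 371 to 376 in Setd2 knockout and 509.9 to 529.7 CPM in wild type libraries, and against wild type 5 were higher and 2 lower in double mutant, 3 higher and 2 lower in Srsf2 mutated, and 2 higher and 1 lower in Setd2 knockout libraries. Of 8 plasmacytoid dendritic cell markers, 7 were higher and 0 lower in double mutant, 5 higher and 0 lower in Srsf2 mutated, and 1 higher and 4 lower in Setd2 knockout than in wild type libraries. The 13 T and NK cell markers summed to 184 to 188 CPM in double mutant, 190.5 to 237 in Srsf2 mutated, 213 to 231 in Setd2 knockout and 395 to 427 CPM in wild type libraries, where Cd3g had 0 counts. These sums were lower in each mutant genotype, while most of the 13 genes were higher with mutated Srsf2: against wild type, 10 were higher and 1 lower in double mutant (median log2 2.42), and 9 higher and 1 lower in Srsf2 mutated libraries (median 1.59). In Setd2 knockout, 1 was higher and 3 were lower. The part of these cell types in the results was not tested.

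**Figure D1:**
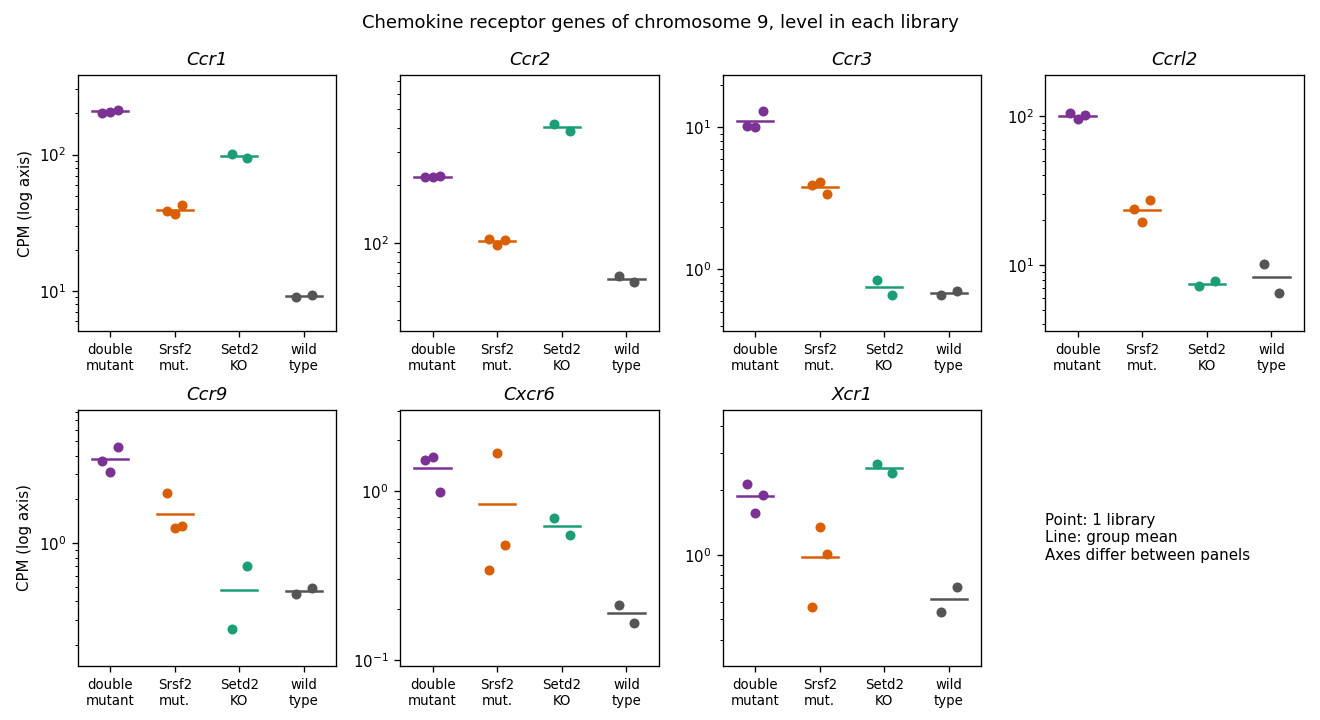
Level of each of the 7 receptor genes in each of the 10 libraries, in CPM on log axes that differ between panels; points are libraries and lines are group means. Ccr2 is highest in the libraries labelled Setd2 knockout, while Ccr3, Ccrl2 and Ccr9 of those libraries lie at the level of wild type.

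The design asks what loss of Setd2 does on each Srsf2 background, what the Srsf2 mutation does alone, and what both do together. In Setd2 knockout against wild type, 3 of 7 receptors were called higher (Ccr1, Ccr2 and Xcr1) and 0 lower, where 18.7% of all tested genes were called higher and 19.9% lower by edgeR at an adjusted p under 0.05. In the same comparison 4 receptors, the called 3 and Cxcr6, had an unadjusted p under 0.05, as did 9156 of the 19289 genes tested. Cxcr6 had an adjusted p of 0.0757 there, of 0.0498 without Srsf2 mutated replicate 1 and of 0.0216 without Srsf2 mutated replicate 2. In Srsf2 mutated against wild type, 6 receptors were higher, Xcr1 being the exception (log2 0.65 ± 0.39, adjusted p = 0.163, and 0.039 without Srsf2 mutated replicate 1), against backgrounds of 28.5% higher and 27.8% lower. With both changes, in double mutant against wild type, all 7 were higher, where 33.5% of genes were higher and 29.5% lower. No double mutant library overlapped with wild type for any receptor, and the share of all tested genes without such overlap is not given here. The median log2 fold change of the 7 was 1.71, 1.76 and 3.0 in these comparisons, against 0.042, 0.082 and 0.13 over all tested genes. These comparisons share the wild type libraries.

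In double mutant against Srsf2 mutated, which shares no library with Setd2 knockout against wild type, 6 of 7 receptors were higher and 0 lower (17.8% and 15.9% of all genes); Cxcr6 gave 0.69 ± 0.51 (adjusted p = 0.332), and without Srsf2 mutated replicate 2 it was called at 1.74 (adjusted p = 0.00942). Ccr1 was 5.26-fold higher there (2.39 ± 0.071, adjusted p = 9.45e-13) and Ccr2 2.16-fold (1.11 ± 0.062, adjusted p = 9.71e-10). Set against Setd2 knockout, double mutant libraries had 4 receptors higher (Ccr1, Ccr3, Ccr9 and Ccrl2) and 1 lower, where 26.0% and 25.8% of genes were called; Ccrl2 was 13.3-fold and Ccr3 14.9-fold higher. There Cxcr6 had an adjusted p of 0.12, and of 0.041 without Srsf2 mutated replicate 2. In Srsf2 mutated against Setd2 knockout, Ccr3, Ccr9 and Ccrl2 were higher (log2 2.35, 1.73 and 1.65) and Ccr1, Ccr2 and Xcr1 lower (-1.32, -1.97 and -1.37), with 23.1% of genes higher and 23.2% lower. The Ccr9 value ranged from 1.17 to 2.6 with one library left out at a time, and its call ended without Setd2 knockout replicate 1 (adjusted p = 0.063).

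**Figure D2:**
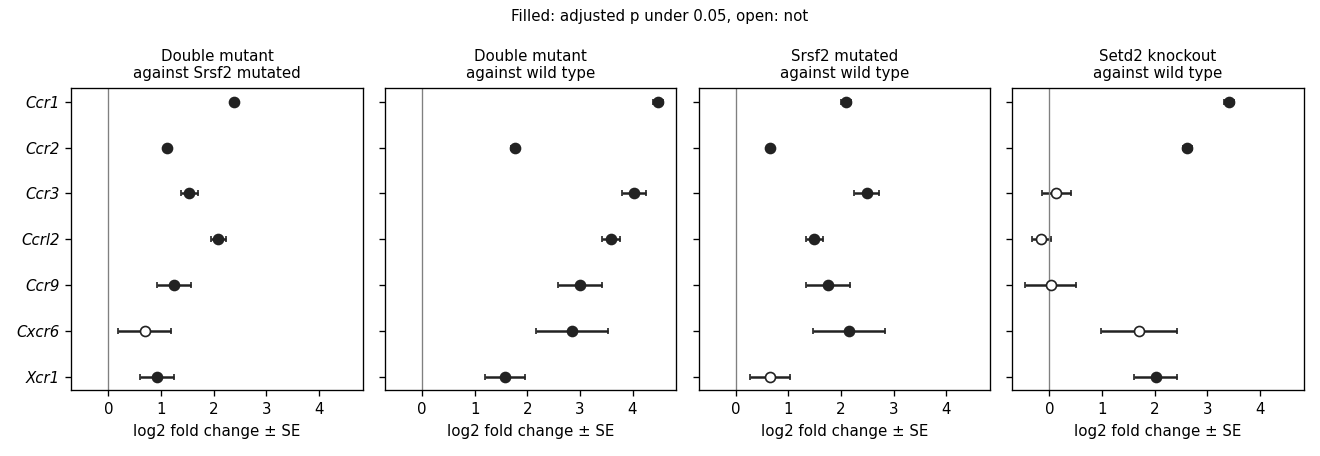
Log2 fold change with its SE for each receptor gene in 4 comparisons from the fit over all 10 libraries; filled points have an adjusted p under 0.05. In double mutant against wild type all 7 points are filled, and in Setd2 knockout against wild type Ccr3, Ccrl2 and Ccr9 lie near 0.

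Whether the Setd2 difference was the same on both Srsf2 backgrounds was tested as an interaction, the log2 fold change of double mutant over Srsf2 mutated minus that of Setd2 knockout over wild type. Of the 7 receptors, 2 were higher and 2 lower than the sum of the single effects, where 16.7% of all genes were higher and 15.2% lower. The Setd2 difference was smaller on the Srsf2 mutated background for Ccr1 (-1.02 ± 0.11, adjusted p = 4.05e-06) and for Ccr2 (-1.51 ± 0.098, adjusted p = 1.22e-08). It was larger there for Ccr3 (1.41 ± 0.32, adjusted p = 0.00332) and for Ccrl2 (2.24 ± 0.23, adjusted p = 1.56e-06). Double mutant libraries averaged 207 ± 6.15 CPM for Ccr1 and 222 ± 2.29 CPM for Ccr2 (SD, n = 3), where both single folds multiplied onto the wild type level give 419 and 632 CPM. For Ccr3 the double mutant mean was 11.2 ± 1.65 CPM against a product of 4.21 CPM, and for Ccrl2 it was 100.2 ± 4.89 CPM against 21.2 CPM. The same contrast was 1.2 ± 0.58 for Ccr9, -1.02 ± 0.88 for Cxcr6 and -1.09 ± 0.51 for Xcr1, with adjusted p of 0.126, 0.417 and 0.122. The contrast was called for Ccr9 without Setd2 knockout replicate 2 (2.05, adjusted p = 0.0291) and for Xcr1 without Srsf2 mutated replicate 1 (-1.42, adjusted p = 0.0309).

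**Figure D3:**
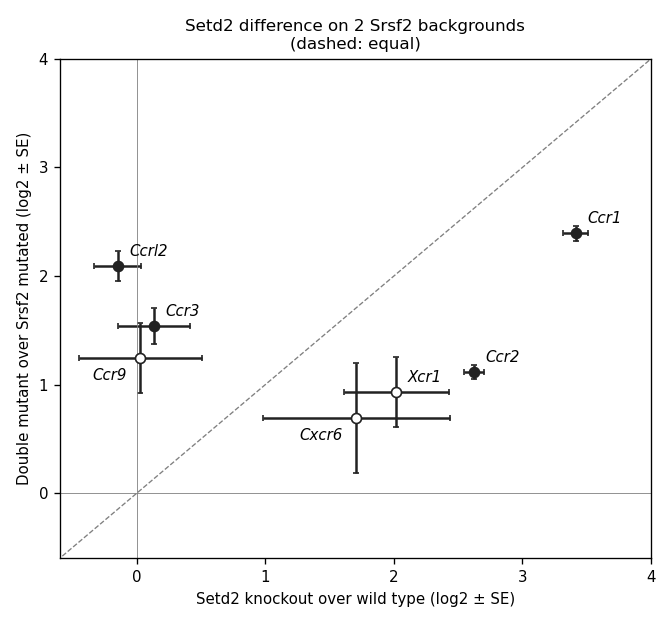
Log2 fold change of double mutant over Srsf2 mutated libraries (vertical) against that of Setd2 knockout over wild type libraries (horizontal), with SE, for the 7 receptor genes; the dashed line marks equal values and filled points have an interaction with an adjusted p under 0.05. Ccr1 and Ccr2 lie below the line and Ccr3 and Ccrl2 above it.

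Set on a per-length scale, the make-up of the receptor transcripts changed with genotype. Divided by the listed gene length, the 7 genes summed to 149 ± 3.21 CPM per kb in double mutant, 40.1 ± 2.56 in Srsf2 mutated, 98.0 ± 5.11 in Setd2 knockout and 16.6 ± 1.45 CPM per kb in wild type libraries. Ccr2 made up 22.0% of that sum in double mutant, 37.9% in Srsf2 mutated, 60.5% in Setd2 knockout and 58.2% in wild type libraries. Ccr1 made up 48.9%, 34.6%, 35.4% and 19.7% in the same groups. The ratio of Ccr1 to Ccr2 per length was 2.22 ± 0.053 in double mutant, 0.915 ± 0.052 in Srsf2 mutated, 0.584 ± 0.0082 in Setd2 knockout and 0.338 ± 0.022 in wild type libraries, and no library of one group overlapped with another group. Ccr1 was therefore the most abundant of the 7 in double mutant libraries, at 73.0 ± 2.17 CPM per kb, and Ccr2 in the other 3 groups. Ccrl2 held 25.8% in double mutant and 22.5% in Srsf2 mutated libraries, and 2.96% in Setd2 knockout against 19.2% in wild type libraries, where its level per kb overlapped with that of Ccr1. The other 4 receptors reached at most 3.41 CPM per kb in any group mean, a value of Ccr3 in double mutant libraries.

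**Figure D4:**
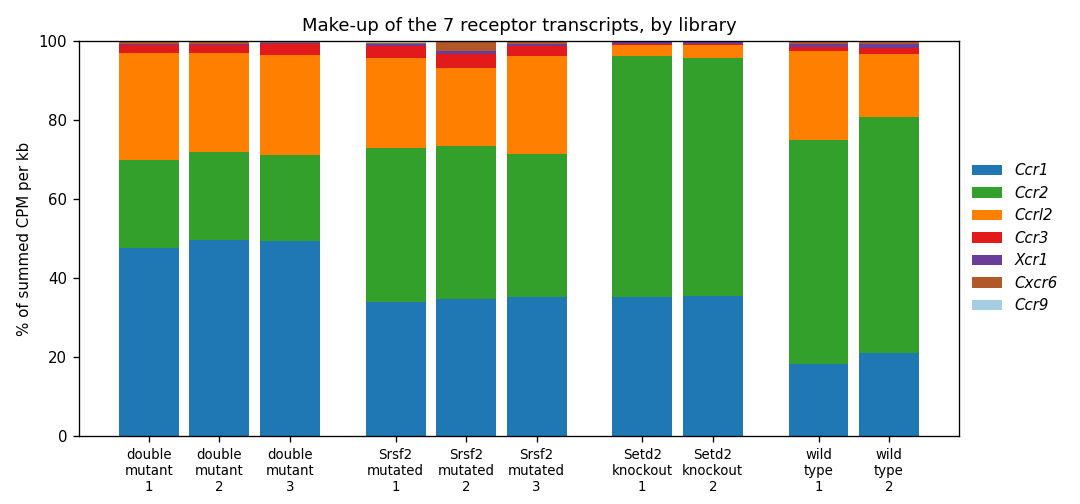
Share of each receptor gene in the summed CPM per kb of all 7, stacked for each of the 10 libraries, as a percentage. Ccr1 takes 48.9% on average in double mutant libraries, and Ccr2 takes 60.5% in libraries labelled Setd2 knockout and 58.2% in wild type.

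Most tested ligands of these receptors were higher in Srsf2 mutated than in wild type libraries, but not those of each receptor. Of 14 listed ligand genes 12 were tested, and 10 were higher and 0 lower in that comparison. Over all tested genes 28.5% were higher and 27.8% lower there. The ligands had a median log2 fold change of 2.35. Not tested were Ccl11, an eotaxin, and Rarres2, which encodes chemerin, so the ligand of Ccrl2 was not measured here. Ccl24, another eotaxin, was scarce and not called in that comparison (-0.49 ± 0.75, adjusted p = 0.597 by edgeR). Ccl6, a mouse ligand of Ccr1, averaged 458 CPM in double mutant, 191 in Srsf2 mutated, 8.90 in Setd2 knockout and 12.9 CPM in wild type libraries. Ccl2, the ligand of Ccr2, averaged 46.1, 11.7, 1.18 and 0.659 CPM in the same groups, and Ccl3, a ligand of Ccr1, averaged 180.2, 309, 21.9 and 25.3 CPM. Double mutant libraries had 9 ligands higher and 0 lower against wild type, where 33.5% of all tested genes were higher and 29.5% lower. In Setd2 knockout against wild type 2 ligands were higher and 3 lower, where 18.7% of all tested genes were higher and 19.9% lower. Ccl9, a ligand of Ccr1 that is also on the monocyte list, gave -0.66 ± 0.084 there (adjusted p = 1.67e-05 by edgeR). Ccl6 gave -0.53 ± 0.10 (adjusted p = 0.000688), and Ccl25, the ligand of Ccr9, 1.12 ± 0.22 (adjusted p = 0.000808). Against Srsf2 mutated libraries, 5 ligands were higher in the double mutant, Ccl6 (1.26) and Ccl2 (1.98) among them, and 2 were lower, Ccl9 (-0.56) among them. Of all tested genes, 17.8% were higher and 15.9% lower in that comparison.

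A list of 16 other chemokine receptor genes, not sorted by chromosome, was also tested. In Setd2 knockout against wild type, the 7 genes described here had a median of 1.71, against -0.38 for these 16, of which 1 was higher and 5 lower. The gene called higher was Ackr1, the Duffy antigen receptor (0.93 ± 0.35, adjusted p = 0.049). Those lower included Cxcr2, the neutrophil receptor (-1.19 ± 0.10, adjusted p = 2.98e-07), Cxcr4, which retains progenitors in the marrow (-0.60 ± 0.083, adjusted p = 3.9e-05), and Ccr7, the lymph node homing receptor (-1.43 ± 0.33, adjusted p = 0.00285). In Srsf2 mutated against wild type 9 were higher, those of smallest adjusted p being Ccr7 (2.51), Cxcr2 (0.82) and Cxcr5 (1.98), and the 1 lower was Cxcr4 (-0.26). Of these 16, 12 were higher in double mutant than in wild type, with Cxcr2 (3.01), Ackr1 (4.05) and Ccr7 (2.38) at the smallest adjusted p, and Cxcr4 was again the 1 lower (-0.38). Against Srsf2 mutated libraries, double mutant libraries had 4 receptors higher and 0 lower, with Cxcr2 at 181 ± 2.78 CPM, against 39.9 ± 1.96 CPM in Srsf2 mutated libraries. Cxcr2 is also 1 of the 12 neutrophil markers. Of all tested genes, 18.7% were higher and 19.9% lower in Setd2 knockout than in wild type. The shares were 28.5% and 27.8% for Srsf2 mutated and 33.5% and 29.5% for double mutant against wild type. In double mutant against Srsf2 mutated they were 17.8% and 15.9%.

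Of 18 genes for signaling partners of these receptors, 2 were higher and 11 lower in Setd2 knockout than in wild type, the opposite direction to Ccr1 and Ccr2. Over all tested genes 18.7% were higher and 19.9% lower in that comparison. The partners lower there included Rac2, a GTPase of blood cell migration (-1.0), Grk2, a receptor kinase (-0.71), and Gnai2, the inhibitory G protein subunit (-0.70). In Srsf2 mutated against wild type 4 were higher, with the G protein regulator Rgs2 among them (1.53), and 10 lower, with Rac2 (-0.70) and the arrestin gene Arrb1 (-0.86) among them. In double mutant against wild type 6 were higher, Grk5 (2.08) and Rgs2 (1.15) among them, and 9 lower, with Pik3cg, which encodes the gamma phosphoinositide kinase, at -0.70. In double mutant against Srsf2 mutated 7 were higher, Arrb1 (1.27), Pik3r5 (0.92), a regulatory subunit of the gamma phosphoinositide kinase, and Arrb2 (0.57) among them, and 3 lower. Of all tested genes, 28.5% were higher and 27.8% lower in Srsf2 mutated against wild type. The shares were 33.5% and 29.5% in double mutant against wild type, and 17.8% and 15.9% in double mutant against Srsf2 mutated.

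Neighbouring genes were measured as well. Within 500 kb of any of the 7 lie 37 other named genes in the tables, of which 23 were tested. In Setd2 knockout against wild type 7 of these were higher and 3 lower, with a median of 0.23. Over all tested genes 18.7% were higher and 19.9% lower there. Beside the 6-gene stretch, 4 of 11 tested neighbours were higher and 0 lower, and beside Ccrl2 3 of 12 were higher and 3 lower. Slc6a20a, a membrane transporter gene next to Ccr9, averaged 4.13 ± 0.547 CPM in double mutant, 0.839 ± 0.195 in Srsf2 mutated, 1.15 ± 0.346 in Setd2 knockout and 0.141 ± 0.0332 CPM in wild type libraries, with log2 fold changes of 4.84, 2.54 and 3.0 against wild type. Its model shares 22 exonic bases with that of Ccr9. Fyco1, which encodes an autophagy adaptor and encloses Cxcr6, averaged 35.4 ± 0.431, 24.3 ± 3.82, 35.3 ± 0.473 and 19.8 ± 1.17 CPM in the same groups, and was 1.78-fold higher in Setd2 knockout than in wild type (adjusted p = 7.23e-05). Since strand use in counting is not known, reads from Fyco1 introns and Cxcr6 cannot be told apart. Ltf, the lactoferrin gene near Ccrl2 and a neutrophil marker, averaged 6434 ± 30.1, 3386 ± 189, 1056 ± 43.1 and 2940 ± 940 CPM, the last with its 2 wild type libraries at 2275 and 3605. The interaction was 2.24 for Ccrl2 and 2.40 ± 0.18 for Ltf (adjusted p = 6.37e-08 by edgeR). Of the 12 tested neighbours of Ccrl2, 2 were higher in the interaction, Ltf among them, and 5 lower, with a median of -0.47. Als2cl (-2.22) and Setd2 (-1.14) were among those lower. Over all tested genes 16.7% were higher and 15.2% lower in the interaction.

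**Figure D5:**
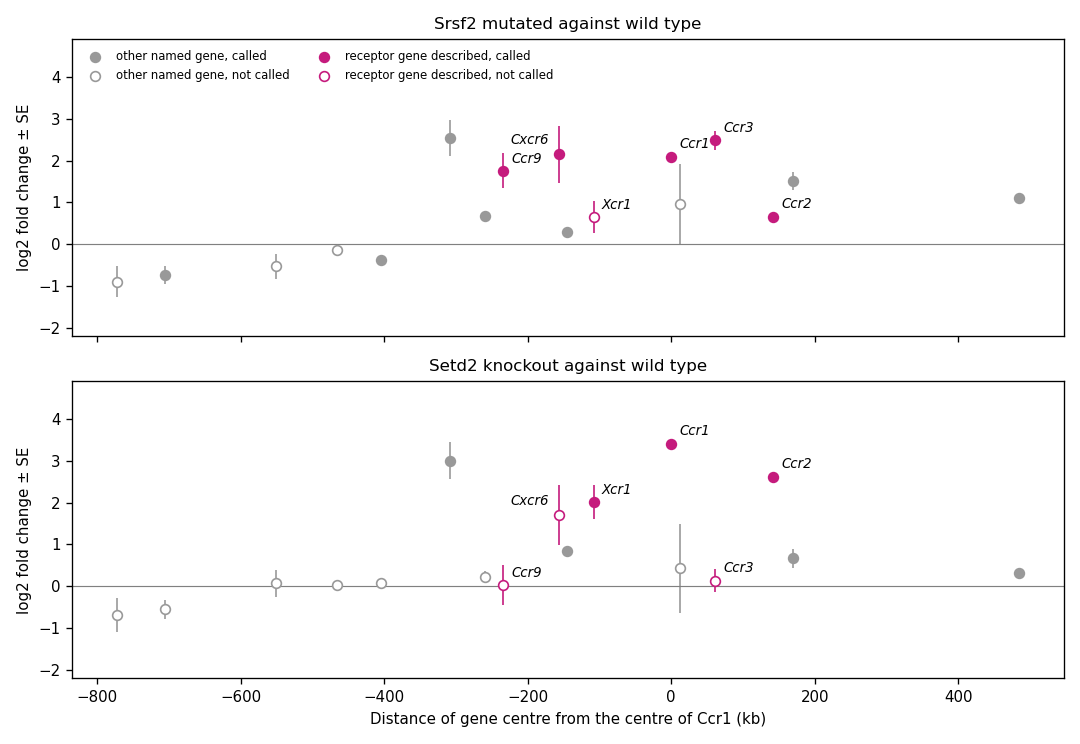
Log2 fold change with SE of the 6 receptor genes of the stretch and of 11 other named genes within 500 kb, by the distance of each gene's centre from that of Ccr1 in kb, for Srsf2 mutated against wild type (top) and Setd2 knockout against wild type (bottom); filled points have an adjusted p under 0.05. Ccr3 lies between Ccr1 and Ccr2 and is at 0.13 in Setd2 knockout, where they are at 3.41 and 2.62.

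The genes whose levels ran most like each receptor over the 10 libraries were sought among genes of at least 1 CPM, by the root-mean-square (RMS) difference of centred log2 values. Those of Ccr3 included Mcam, an adhesion molecule gene (RMS 0.189, Pearson r = 0.993). For Ccr1 the nearest was Kel, the Kell blood group gene of erythroid cells (0.236, r = 0.991), and for Ccrl2 Pira2, an immunoglobulin-like receptor gene of myeloid cells (0.209, r = 0.992), then Pla2g7, a platelet-activating factor hydrolase gene (0.217). Both Ccr2 and Xcr1 were nearest to Pvt1, a noncoding RNA gene (0.254 and 0.225), followed by Ryk for Ccr2 (0.264) and Emc9 for Xcr1 (0.281). Ccr9 was nearest to Gch1 (0.370) and F3, the tissue factor gene (0.373), and Cxcr6 to Samd4 (0.414) and Ap4b1 (0.432). These are descriptions over 10 libraries in 4 groups, which share the group differences.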

How the data were processed

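Bulk RNA-seq was read from 3 tables deposited by the authors, each of a pair of genotypes. Per the file headers they hold whole-number counts per gene and library, FPKM (made by the authors from the count, the listed gene length and the library total), and from the authors' fit a log2 fold change, its SE, a test statistic (a score), a p-value and an adjusted p-value. The mean normalised count, a signal of abundance from the authors' fit, stands beside them per the file headers. The submitters' processing notes name HISAT2 2.0.5, HTSeq 0.9.1, featureCounts 2.0.1 and DESeq2 1.22.2 among other tools, with no step given. Libraries present in more than 1 table had the same counts in each, and tables were joined on the Ensembl identifier.

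The counts were filtered by filterByExpr and scaled by TMM in edgeR 4.0.16 (R 4.3.3), and 1 quasi-likelihood model with a term per group was fitted over all 10 libraries. The model gave 6 pairs of groups and 1 interaction. Benjamini-Hochberg adjustment ran over the 19289 genes tested, and calls were made at an adjusted p under 0.05. The SE is the log2 fold change divided by the square root of F. CPM per kb uses the listed length, and errors beside means are SDs. On simulated counts for these genes the fit was tested before use. DESeq2 1.42.0, other scalings and filters, fits of the compared groups alone, the replicate block and leaving out each library were tried. Likeness used log2(CPM + 0.1). Replicate numbers were not used to pair libraries in the main fit.

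The 7 members and the gene lists were chosen with earlier results of these data known. Outside the 7, a gene is named if it was the only one called in its direction or among the 3 of smallest adjusted p in its list and comparison; a few genes that the rules would name are not reported here. Slc6a20a, Fyco1, Ltf, Gm17200 and AC165425.1 were also followed because of their position, chosen after their values were seen. Ccl11 and Rarres2 are named as the listed ligands not tested, and Ccl24 as an eotaxin that was tested.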

Additional observations from a re-analysis of the deposited data

Results flagged for a closer look

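The Setd2 difference was not the same on the 2 Srsf2 backgrounds for 4 receptors, by the interaction of the fit over all 10 libraries. Ccr1 had -1.02 (log2), with 5.26-fold in double mutant over Srsf2 mutated and 10.7-fold in Setd2 knockout over wild type. Ccr2 had -1.51, with 2.16-fold and 6.16-fold in the same pairs. Ccr3 had 1.41, with 2.91-fold and 1.10-fold. Ccrl2, the receptor gene nearest to Setd2, had 2.24, with 4.26-fold on the Srsf2 mutated background and 1.11-fold lower in Setd2 knockout than in wild type.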

How the results depend on the processing

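The count of receptors called stayed within 1.5 times its value in all 118 alternatives of the 7 comparisons. Refits of single receptors kept direction and call in 793 cases, gained a call in 10, lost it in 10 and reversed in 6; Ccr1 and Ccr2 kept both in each. With one library left out at a time, the Setd2 knockout against wild type value ranged from -0.042 to 0.31 for Ccr3, from -0.85 to 0.58 for Ccr9 and from -0.44 to 0.21 for Ccrl2, none of them called. Cxcr6 ranged from -0.60 to 0.82 in Srsf2 mutated against Setd2 knockout and from -1.45 to 0.030 in the interaction, the extremes -0.60 and 0.030 being those without Srsf2 mutated replicate 2.

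Cxcr6 in Setd2 knockout against wild type was called with no filter (adjusted p = 0.0313), with only the compared groups (0.0165) and without Srsf2 mutated replicate 1 (0.0498) or 2 (0.0216); in Srsf2 mutated against wild type it was not called without either wild type library (0.0591 and 0.0918). Without Srsf2 mutated replicate 2 it was called in double mutant against Srsf2 mutated (1.74, 0.00942) and against Setd2 knockout (0.041), and in that last pair also with only the compared groups (0.0143). Xcr1 in double mutant against Srsf2 mutated was not called with only the compared groups (0.074), and without Srsf2 mutated replicate 1 it was called in Srsf2 mutated against wild type (0.039) and in the interaction (-1.42, 0.0309). Ccr9 was not called in Srsf2 mutated against Setd2 knockout without Setd2 knockout replicate 1 (0.063), and its interaction was called without replicate 2 (2.05, 0.0291). The causes were not tested. The stricter filter left Cxcr6 out.

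Same-numbered libraries did not deviate together (correlations -0.028 to 0.040). With 2 or 3 libraries in a group, these correlations cannot decide whether a number marks a shared litter, day or batch, which the labels do not say. With the replicate block Ccr1 had 2.05 in Srsf2 mutated against wild type and 6 receptors were called there. The median of all genes moved by 0.12 with DESeq2 and by -0.12 with the stricter filter in double mutant against wild type, and by -0.15 with upper-quartile scaling in the interaction, where 37.6% of called genes were then higher in place of 52.4%. Levels from the authors' FPKM were within 1 SD of those given for 19 of 28 values. Wild type counts of 7 to 30 limit Cxcr6, Ccr9, Xcr1 and Ccr3.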

Other observations

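For double mutant against Srsf2 mutated, the authors' deposited table gave Ccr1 a log2 fold change of 2.32 with an SE of 0.287, where the fit here gave 2.39 with an SE of 0.0708 by edgeR. In that deposited table Ccr9 (adjusted p = 0.259) and Xcr1 (adjusted p = 0.249) did not pass 0.05, and both passed it here. In the authors' deposited table of Srsf2 mutated against wild type, Ccr2 is classed as unchanged beside an adjusted p of 1.63e-19 and a log2 fold change of 0.68.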
